A study of Mus musculus with 4 samples.

Results

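The Cyp3a cytochromes described here are 7 mouse genes, Cyp3a11, Cyp3a13, Cyp3a16, Cyp3a25, Cyp3a41a, Cyp3a41b and Cyp3a44, followed in liver with and without Pnpla7. They were chosen by the KO/WT ratios measured on these same arrays, so their levels and ratios are given as a description and no test is made of them. A probe was counted to a gene where the array's design gives it that gene's name, and each probe was kept apart because the copies are nearly identical. Of the 7 genes, 6 had a probe of their own name, 8 probes in all, among 39429 probes under 30139 gene names. Cyp3a41a had 0 probes of its own and was read only through 2 probes named for Cyp3a11 and Cyp3a41b. All 8 probes were well above background and below saturation on all 4 arrays.

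The series' title places PNPLA7, a lysophospholipase, in the breakdown of phosphatidylcholine that supplies choline to the methionine cycle. The 4 groups were livers of wild type (WT) and Pnpla7-/- (knockout, KO) mice, all on the C57BL/6N background, at 3 and at 6 weeks of age. Each group was 1 pool of RNA from 5 animals on 1 one-colour (Cy3) Agilent array, and the 4 arrays sat on 1 slide. Which part of Pnpla7 is deleted, in which cells, and the sex and feeding state of the animals are not given in the sources used here. With 1 array per group there is no replicate check, no error over animals and no p-value, and the array's place on the slide and the group cannot be told apart. In whole liver, fewer cells of a type and less RNA per cell cannot be told apart either.

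CYP3A enzymes are haem monooxygenases of the endoplasmic reticulum that oxidise drugs, steroid hormones and bile acids, drawing electrons from cytochrome P450 reductase. Their genes are classic targets of the nuclear receptors PXR and CAR, which sense foreign compounds and bile acids. In mouse liver Cyp3a11 is the main inducible adult form, Cyp3a16 is known from fetal and young liver, and Cyp3a41 and Cyp3a44 are known as female-predominant forms that depend on the pattern of growth hormone secretion. Cyp3a13 lies apart from the other genes on the same chromosome and is also active in the intestine.

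Signals below are the processed intensity of a probe divided by its array's 75th percentile, so 1 means as bright as that percentile. Probes differ in how well they bind, so a signal is compared only between arrays and never between probes. As a yardstick for technical noise, the median spot-to-spot SD over 129 bright probes printed as 10 spots each was taken. It gave an SD of 0.0856 for a log2 KO/WT ratio at 3 weeks and 0.10 at 6 weeks. For the log2 ratio of 6 over 3 weeks it was 0.0837 in WT and 0.102 in KO, and for the difference between the ages 0.132. That SD holds nothing of the differences between animals, pools or labelling reactions, and each Cyp3a probe had 1 spot per array. The scanner software's own error of each Cyp3a spot was wider, at about 10% of the signal on every array. In KO at 6 weeks the 95th percentile of the spot-to-spot SD was 0.234, against 0.0933 to 0.103 on the other arrays. Ratios a little past 2 SDs are therefore not settled by this yardstick.

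The labelled tissue was checked first. All 8 hepatocyte markers were well above background on every array, with summed signals from 1218 to 1335. Their median log2 KO/WT was 0.03 at 3 weeks (from -0.16 to 0.23) and 0.23 at 6 weeks (from -0.10 to 0.96). Of 7 small intestine markers, 2 or 3 were above background on an array, and Lct, Cdx2, Alpi and Muc2 were above it on none. Since some Cyp3a forms differ by sex, sex-linked transcripts were read too. Every array read Xist well above background, at 1.27 in WT and 1.29 in KO at 3 weeks and at 1.47 and 1.79 at 6 weeks. The Y-linked Ddx3y, Eif2s3y and Kdm5d were above background on no array, and Uty was above it on the WT array at 3 weeks alone, at 0.222. Skeletal muscle markers moved with the genotype: their summed signal was 0.536 in WT and 49.8 in KO at 3 weeks, and 1.21 and 33.2 at 6 weeks. Kupffer cell markers summed to 57.9 in WT and 51.7 in KO at 3 weeks and to 47.0 and 26.1 at 6 weeks, where all 5 were lower in KO (log2 from -1.54 to -0.37, median -0.86). Erythroid markers summed to 99.5 and 87.7 at 3 weeks and to 9.16 and 8.34 at 6 weeks, so they differed between the ages in both genotypes. The part of hepatocyte, muscle, Kupffer cell and erythroid RNA in the Cyp3a ratios was not tested.

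Which transcripts a probe can read decides what its ratio describes, so the probe sequences that matter most are shown first. The Cyp3a11 probe that starts at base 1104 of its transcript lies in coding sequence, and its mm9 position, chr5:146672058-146673925 on the minus strand, runs over 1868 bases, so it crosses an intron. The array's design lists transcripts of 4 genes for it, Cyp3a11, Cyp3a41a, Cyp3a41b and Cyp3a44.
shared Cyp3a11 probe: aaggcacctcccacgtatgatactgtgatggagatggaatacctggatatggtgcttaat

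The Cyp3a44 and Cyp3a41b probes read almost the same stretch of their transcripts, near the 3′ end. Of 53 positions that they share, 46 were identical and 7 differed. The first 30 of these positions, which hold only 2 of the 7 differences, are shown with the differing bases in capitals.
Cyp3a44 probe: cactgagctttctcagtgtctgtGcaAgtt
Cyp3a41b probe: cactgagctttctcagtgtctgtAcaGgtt

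Binding of each transcript to the other's probe was not tested. The Cyp3a41b probe also lists the transcript of Cyp3a41a, so these 2 genes are not separated. No other pair of Cyp3a probes had over 30 identical positions at any alignment without gaps. This compares probes with probes, and binding to the transcripts of other Cyp3a genes was not tested.

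Cyp3a44 was the member with the widest range, 19.5-fold between its highest and lowest array. Its probe (base 1744 of the transcript, chr5:146585717-146585776, mm9, minus strand) read 9.94 in WT and 2.40 in KO at 3 weeks. At 6 weeks it read 5.69 in WT and 0.510 in KO. Both WT arrays lay above both KO arrays, and the older array was the lower of the pair in each genotype. The log2 KO/WT ratio was -2.05 at 3 weeks (4.14-fold lower) and -3.48 at 6 weeks (11.1-fold lower). Between the ages it was lower at 6 weeks by a log2 ratio of -0.81 in WT and -2.23 in KO. All steps in this order of arrays, WT 3 weeks, WT 6 weeks, KO 3 weeks, KO 6 weeks, were beyond 2 spot-to-spot SDs.

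Cyp3a41b, read together with Cyp3a41a, came next (base 1743, chr5:146319794-146319853). Its probe read 13.8 in WT and 4.48 in KO at 3 weeks, and 24.5 and 5.04 at 6 weeks. The log2 KO/WT ratio was -1.63 (3.09-fold lower) at 3 weeks and -2.28 (4.86-fold lower) at 6 weeks. Here the WT signal was higher at 6 than at 3 weeks, by a log2 ratio of 0.82, while the KO ratio between ages, 0.17, was within 2 SDs. From 3 to 6 weeks in WT the 2 female-predominant members thus had ratios of opposite sign, neither past 2-fold, and both KO arrays lay under both WT arrays for each.

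Cyp3a16, the form known from young liver (base 1574, chr5:146197274-146197333), read 29.9 in WT and 14.9 in KO at 3 weeks. At 6 weeks it read 39.9 and 18.3. Its log2 KO/WT ratios were -1.0 and -1.13, 2.0-fold and 2.19-fold lower, and the WT and KO arrays did not overlap. Its signal at 6 weeks was not below that at 3 weeks in either genotype: the log2 ratio of 6 over 3 weeks was 0.42 in WT and 0.29 in KO. The KO/WT ratios at the 2 ages differed by -0.13, within 2 SDs.

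Cyp3a11, the main inducible form, has 2 probes that gave different ratios. The probe that lists Cyp3a11 alone (base 1939, chr5:146666237-146666296) gave 128 in WT and 83.4 in KO at 3 weeks, and 139 and 100.2 at 6 weeks. Its log2 KO/WT ratio was -0.61 at 3 weeks (1.53-fold lower) and -0.47 at 6 weeks (1.39-fold lower), short of 2-fold at both ages. The shared probe printed above gave 55.0 and 28.2 at 3 weeks and 68.8 and 34.4 at 6 weeks, log2 ratios of -0.97 and -1.0. Its ratios thus lay between those of the probe for Cyp3a11 alone and those of the Cyp3a41b and Cyp3a44 probes, whose transcripts it lists as well. On both Cyp3a11 probes the order of arrays was WT 6 weeks, WT 3 weeks, KO 6 weeks, KO 3 weeks. The 2 WT arrays differed within 2 SDs on the probe for Cyp3a11 alone, by a log2 ratio of 0.12.

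Cyp3a25, an adult form of the same cluster (base 1833, chr5:146788879-146788938), had the opposite direction at 6 weeks. It read 46.6 in WT and 42.8 in KO at 3 weeks, a log2 ratio of -0.13 that was within 2 SDs. At 6 weeks it read 50.3 in WT and 77.5 in KO, a log2 ratio of 0.62 (1.54-fold higher). The KO array at 6 weeks stood apart. Among the 3 other arrays, neighbours in the order differed within 2 SDs, though WT at 6 weeks and KO at 3 weeks, which are not neighbours, differed beyond that.

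Cyp3a13, the member away from the cluster, has 2 probes in its last part that did not give the same picture. The probe at base 1644 (chr5:138335412-138335471) read 9.68 in WT and 8.11 in KO at 3 weeks, then 9.03 and 9.87 at 6 weeks, log2 ratios of -0.25 and 0.13. No neighbouring arrays in its order differed beyond 2 SDs, though WT and KO at 3 weeks, which are not neighbours in it, did. The probe at base 2791 (chr5:138334265-138334324) read 1.32 and 1.17 at 3 weeks and 1.1 and 2.36 at 6 weeks, log2 ratios of -0.17 and 1.09. Only the farther probe was thus 2.13-fold higher in KO at 6 weeks, and at 3 weeks the 2 probes gave similar ratios.

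**Figure D1:**
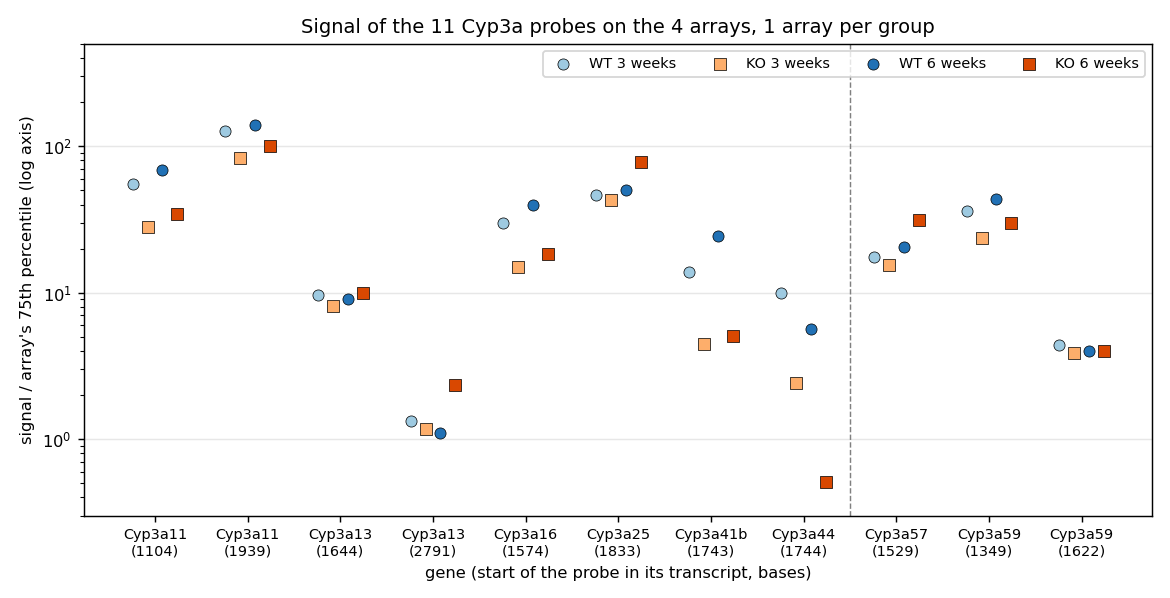
Signal of each Cyp3a probe (processed intensity over the array's 75th percentile, log axis) on the 4 arrays, with 1 point per array and no error bar since each group is 1 array. Probes are named by gene and first base in the transcript, and genes right of the dashed line are not among the 7. Squares (KO) lie under circles (WT) of both ages for Cyp3a11, Cyp3a16, Cyp3a41b and Cyp3a44, while Cyp3a25 and Cyp3a57 are highest in KO at 6 weeks.

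Counted over the 8 probes, 3 were at least 2-fold lower in KO at 3 weeks (Cyp3a16, Cyp3a41b and Cyp3a44) and 0 were 2-fold higher. Over all probes tested, 3.01% were that much lower and 2.93% higher. At 6 weeks 4 were at least 2-fold lower, the same 3 and the shared Cyp3a11 probe (2.0009-fold), against 4.39% of all probes. At that age 1 (Cyp3a13 at base 2791) was higher, against 6.33%. At both ages 3 of 8 were lower, against 0.348% of all probes, and 0 were higher, against 0.982%. Because the genes were chosen by these ratios, nothing is read from the difference between those shares. Among 9590 probes brighter on average than the 75th percentile, 0.292% were 2-fold lower at 3 weeks and 1.61% at 6 weeks. The median log2 KO/WT ratio over the 8 probes was -0.79 at 3 weeks and -0.74 at 6 weeks, and over all probes it was 0.00 and 0.05.

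Between the ages, 0 of the 8 probes differed by 2-fold in WT, where 5.71% of all probes were lower and 3.54% higher at 6 weeks. In KO 1 was lower, Cyp3a44 (6.11% of all probes), and 1 was higher, Cyp3a13 at base 2791 (6.45%). The difference between the KO/WT ratios of the 2 ages passed 2-fold downwards for Cyp3a44, at -1.43 (3.43% of all probes), and upwards for Cyp3a13 at base 2791, at 1.27 (3.99%). For Cyp3a41b that difference was -0.65 and for Cyp3a25 0.75. For Cyp3a16 and both Cyp3a11 probes it was within 2 SDs. The KO/WT ratios share no array between the ages, but each KO/WT ratio shares its arrays with the ratios between ages.

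**Figure D2:**
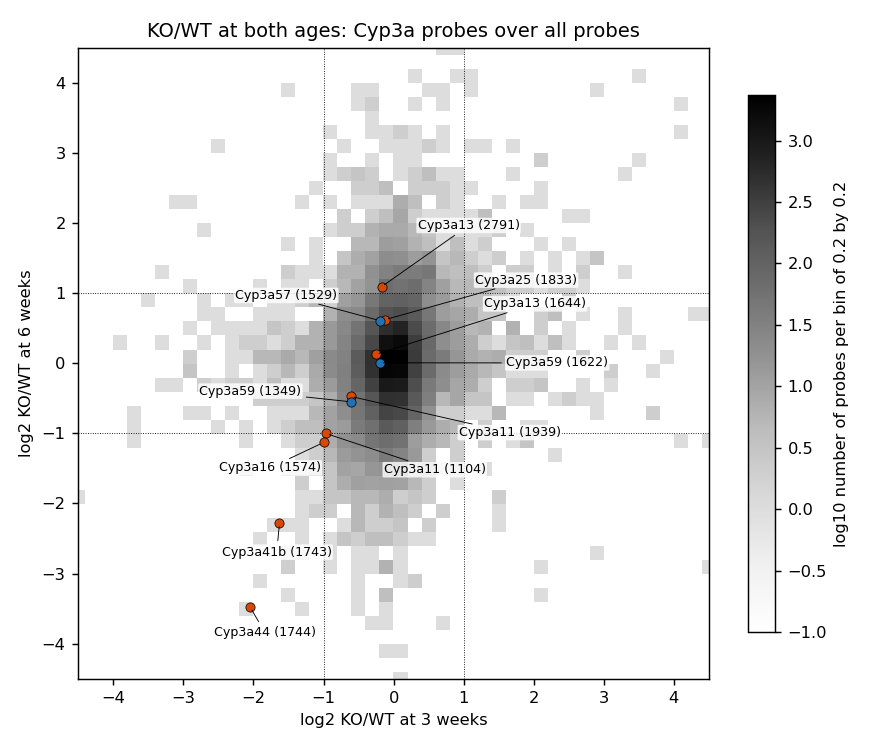
Log2 KO/WT at 3 weeks (horizontal) against 6 weeks (vertical) for the 24519 probes well above background on all 4 arrays, as grey bins, with the Cyp3a probes of the 7 genes in orange and those of Cyp3a57 and Cyp3a59 in blue. Dotted lines mark 2-fold; Cyp3a44 lies at -2.05 and -3.48 and Cyp3a41b at -1.63 and -2.28, lower left of the dense centre.

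The array holds 3 more probes named for Cyp3a genes, 1 for Cyp3a57 and 2 for Cyp3a59. Cyp3a57 read 17.6 in WT and 15.3 in KO at 3 weeks, then 20.6 and 31.4 at 6 weeks, log2 ratios of -0.20 and 0.61, close to the values of Cyp3a25. The Cyp3a59 probe at base 1349 read 36.02 and 23.7, then 43.9 and 29.99, log2 ratios of -0.61 and -0.55. The second Cyp3a59 probe, at base 1622, gave log2 ratios of -0.20 and 0.01. The 2 Cyp3a59 probes therefore disagreed, the first giving ratios near those of the probe for Cyp3a11 alone.

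All Cyp3a probes except those of Cyp3a13 lie within 773 kb of chromosome 5, and Cyp3a13 lies 7816 kb from the nearest of them. To see whether neighbouring genes had like ratios, the 71 probes of other names within 1 Mb either side of the cluster were listed. At 3 weeks 50 of them had a ratio, with a median log2 of -0.04, and 2 were at least 2-fold lower. At 6 weeks 53 had one, with a median of 0.10, and 3 were lower and 1 higher. Over all probes of the array, 3.01% were lower and 2.93% higher at 3 weeks, and 4.39% and 6.33% at 6 weeks. The few past 2-fold were named after their values were seen. One of them, LOC101056526, is described in the array's design as a predicted gene like cytochrome P450 3A41 and lies 189 kb from the Cyp3a44 probe, between it and Cyp3a41b. It read 3.48 in WT and 1.52 in KO at 3 weeks, then 5.59 and 2.03 at 6 weeks, log2 ratios of -1.20 and -1.46. Without it, 1 probe was lower at 3 weeks (Tmem130) and 2 at 6 weeks (AU024546 and Gpr12), with 1700001J03Rik higher, all with signals of at most 0.0524 on every array. Ratios of the cluster's Cyp3a genes therefore ranged from -2.05 to -0.13 at 3 weeks within a neighbourhood whose median was near 0. Low and near-equal ratios were interspersed: Cyp3a57 lies beyond Cyp3a16, Cyp3a25 beyond Cyp3a11, and the Cyp3a59 probe at base 1349, as low as the probe for Cyp3a11 alone, beyond Cyp3a25.

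**Figure D3:**
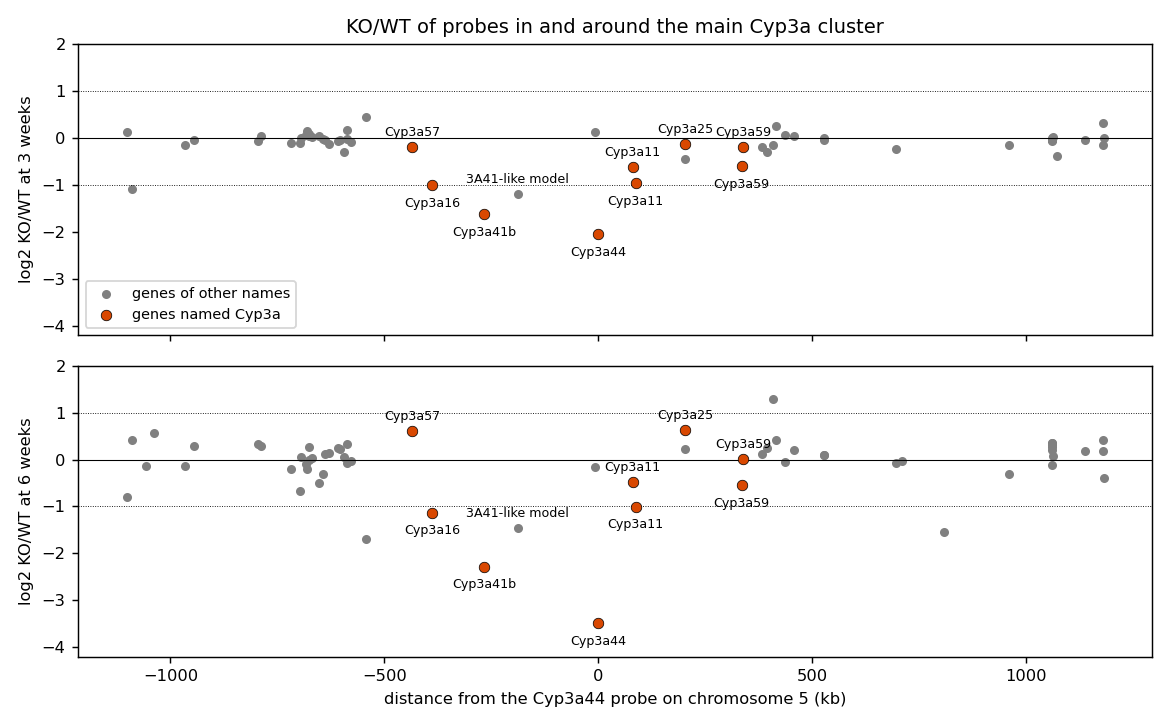
Log2 KO/WT at 3 weeks (top) and 6 weeks (bottom) of probes on chromosome 5 by their distance in kb from the Cyp3a44 probe; orange points are genes named Cyp3a, grey points are genes of other names, and dotted lines mark 2-fold. Cyp3a13 is outside the window. Cyp3a16, Cyp3a41b, the 3A41-like model, Cyp3a44 and Cyp3a11 lie low, Cyp3a57 and Cyp3a25 near or above 0, and of the 2 Cyp3a59 probes beyond Cyp3a25 one lies low (-0.61 and -0.55) and one near 0 at 6 weeks (0.01).

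The promoters of the members that were lower together were then set side by side, from RefSeq's table for build GRCm38.p6, where all 7 had an entry. Over the 250 bases before the start site, Cyp3a44 was 95.9% identical to Cyp3a16, 94.4% to Cyp3a41a, 94.8% to Cyp3a41b and 80.9% to Cyp3a11. Cyp3a41a and Cyp3a41b were 99.6% identical. Cyp3a25 formed another group with the non-members Cyp3a57 (90.3%) and Cyp3a59 (95.6%), and was 66.4% identical to Cyp3a44, about the level that Cyp3a13 had with every other gene (64.4% to 68.4%). Identity here is over positions aligned with gaps. The genes with KO/WT ratios past 2-fold at both ages belong to the group of closest promoters, as a description over few genes. The members were chosen by these ratios. The Cyp3a41b and Cyp3a44 probes are also alike, at 46 of 53 shared positions, so likeness of promoters and of transcripts cannot be told apart here. The grouping also hangs on the cutoff at 3 weeks, where Cyp3a16 was 2.0006-fold lower and the shared Cyp3a11 probe 1.95-fold lower. At 6 weeks Cyp3a16 was 2.19-fold lower and the shared Cyp3a11 probe 2.0009-fold lower, so the latter passed the cutoff only barely. Under quantile normalization Cyp3a16 fell short at 3 weeks, with a log2 ratio of -0.97. In the other group the ratios were not alike: Cyp3a25 and Cyp3a57 were higher in KO at 6 weeks (0.62 and 0.61), and the 2 Cyp3a59 probes gave -0.55 and 0.01. Cyp3a13, close to neither group, had the one probe past 2-fold higher.

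**Figure D4:**
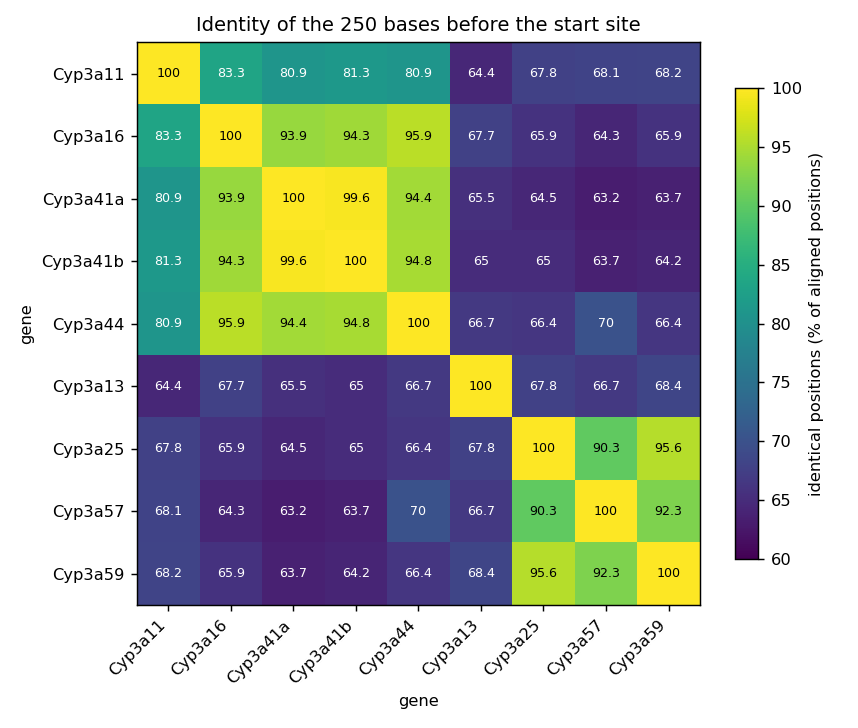
Identity of the 250 bases before the start site between each pair of Cyp3a genes, in percent of aligned positions (colour and number). Cyp3a16, Cyp3a41a, Cyp3a41b and Cyp3a44 form a block from 93.9% to 99.6%, Cyp3a11 lies between 80.9% and 83.3% to them, and Cyp3a25, Cyp3a57 and Cyp3a59 form a block from 90.3% to 95.6%.

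Among the motifs searched on both strands, ATTGAT is shown since it stands at one place in all of the close group and not in Cyp3a11. It was thus picked by that difference, which its count cannot support. It is in capitals (as ATCAAT, the reverse strand) in the stretch just before the start site. The match began 71 bases before the start in Cyp3a41a, Cyp3a41b and Cyp3a44 and 75 bases before it in Cyp3a16. Positions are GRCm38.p6, minus strand: Cyp3a44 chr5:145805892-145805981, Cyp3a41b chr5:145584748-145584837, Cyp3a16 chr5:145469745-145469834 and Cyp3a11 chr5:145879887-145879974.
Cyp3a44: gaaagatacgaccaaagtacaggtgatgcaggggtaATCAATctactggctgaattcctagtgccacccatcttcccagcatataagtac
Cyp3a41b: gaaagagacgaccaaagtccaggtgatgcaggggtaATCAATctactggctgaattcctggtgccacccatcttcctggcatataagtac
Cyp3a16: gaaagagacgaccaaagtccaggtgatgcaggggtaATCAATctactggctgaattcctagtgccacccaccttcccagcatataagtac
Cyp3a11: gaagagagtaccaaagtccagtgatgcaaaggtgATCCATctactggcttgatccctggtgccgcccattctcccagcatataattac

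Of the 90 bases, Cyp3a16 differed from Cyp3a44 at 3, Cyp3a41b at 5 and Cyp3a41a at 6, and Cyp3a11 had 72 identical, with ATCCAT at the marked place. Over windows of 250 bases before to 50 after the start, ATTGAT matched 4 of the 7 members and 7.54% of 32851 promoters. Those 4 promoters are near-copies, 93.9% to 99.6% identical, so their matches are not independent of each other. The non-member Cyp3a57, not lower in KO at 6 weeks, also held ATTGAT, 223 bases before its start. TTGCNNNAA matched 5 of 7 (9.56% of promoters), the same 5 genes as TATAAA (13.6%): Cyp3a11, Cyp3a16, Cyp3a41a, Cyp3a41b and Cyp3a44. TTCNNNGAA matched 0 of 7 (8.30%). The nuclear receptor motif AGGTCA matched Cyp3a11, Cyp3a44 and Cyp3a25 (16.3%), and repeats of it spaced by 3 bases or by 1 base, or of AGTTCA spaced by 3, matched none of the 7. A match is a description of letters, and no match says only that they are not in this window.

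Cyp3a25 and its 2 close relatives each held AGGTCA at 2 places in opposite directions, which no gene of the other group did. The stretch is shown for Cyp3a25 (chr5:146009753-146009809, minus strand) and Cyp3a57 (chr5:145345080-145345136, plus strand), with both matches in capitals.
Cyp3a25: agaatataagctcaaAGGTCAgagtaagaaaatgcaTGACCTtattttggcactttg
Cyp3a57: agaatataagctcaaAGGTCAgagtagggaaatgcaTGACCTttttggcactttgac

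The receptors and liver factors that act on Cyp3a genes were read next, from a list of 13. Of these, 12 had a ratio and Vdr, the vitamin D receptor, was not well above background on any array. At 3 weeks 0 of 12 were past 2-fold in either direction, while 3.15% of all genes were lower and 2.95% higher. At 6 weeks 0 were lower and 2 higher, beside 4.55% and 6.51% of all genes. The list's median log2 KO/WT was 0.02 and 0.12.

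Nr1i2, which encodes PXR, read 2.30 in WT and 2.62 in KO at 3 weeks, then 2.77 and 3.13 at 6 weeks, log2 ratios of 0.19 and 0.17. Nr1i3, which encodes CAR, read 9.11 and 7.87 at 3 weeks and 10.9 and 22.4 at 6 weeks, log2 ratios of -0.21 and 1.04, so its KO array at 6 weeks was the highest of the 4. Cyp3a25, Cyp3a57 and both Cyp3a13 probes also read highest on that array. So did Nr1i2, Rxra, Nr3c1, Nr1h4, Hnf4a, Cebpa, Ppargc1a and Nr0b2 of this list, while Foxa2, Onecut1 and Ncoa1 did not. Both Cyp3a11 probes were highest in WT at 6 weeks. A link of the Cyp3a signals to Nr1i3 was not tested. Ppargc1a, a coactivator of fasting metabolism, had log2 ratios of 0.98 and 1.25. Rxra, the shared partner of both receptors, had 0.17 and 0.35, and Nr3c1, the glucocorticoid receptor, -0.15 and 0.13. Nr1h4, the bile acid receptor FXR, had -0.28 and 0.67, and its target Nr0b2, a repressor, 0.69 and 0.03. Among the liver factors, Hnf4a had 0.08 and 0.10, Foxa2 -0.56 and -0.01, Cebpa -0.01 and 0.03, and Onecut1 -0.47 and -0.20. The coactivator Ncoa1 had 0.04 and -0.14. None of these was lower by 2-fold in KO at either age.

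P450 enzymes also need electrons and haem. Of 7 genes of that list, 0 were past 2-fold at either age, and the median log2 KO/WT was -0.06 at 3 weeks and 0.12 at 6 weeks. Among all genes, 3.15% were lower and 2.95% higher at 3 weeks, and 4.55% and 6.51% at 6 weeks. Por, the reductase that feeds all microsomal P450s, had log2 ratios of 0.17 and 0.99, just short of 2-fold at 6 weeks. Cyb5a, cytochrome b5, had -0.11 and 0.55, Alas1, the first enzyme of haem synthesis, 0.12 and 0.45, and Hmox1, which breaks haem down, -0.06 and -0.24.

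Of 22 other genes that PXR or CAR induce, 5 were at least 2-fold lower and 0 higher in KO at 3 weeks, with a median log2 ratio of -0.52, and the other 17 did not reach 2-fold. The 5, named after their values were seen, were Cyp2b9, Cyp2b10, Cyp2b13, Cyp2c55 and Akr1b7. At 6 weeks 2 were lower (Cyp2c55 and Gstm3) and 1 higher (Slco1a4), with a median of 0.07. Of all genes, 3.15% were lower and 2.95% higher in KO at 3 weeks, and 4.55% and 6.51% at 6 weeks. Cyp2c55, a P450 of steroid and fatty acid oxidation, was past 2-fold at both ages: it read 0.916 and 0.393 at 3 weeks and 1.05 and 0.0914 at 6 weeks, log2 ratios of -1.22 and -3.52. Gstm3, a glutathione transferase, had -0.59 and -1.15, Slco1a4, an uptake transporter, -0.03 and 1.05, and Cyp2c54 -0.05 and 0.98. Between the ages 10 of the 22 were 2-fold higher and 1 lower in KO, with a median log2 of 0.93, against 2 higher and 0 lower in WT, with a median of 0.20. Over all genes, 6.63% were higher and 6.35% lower in KO, and 3.67% and 5.90% in WT. Cyp3a25 had the same order of values, 0.86 in KO and 0.11 in WT. Cyp3a11, the best known target of the set, had 0.27 and 0.12 on the probe for it alone.

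Cyp3a41 and Cyp3a44 belong to the female-predominant genes of mouse liver, so lists of sex-biased genes without Cyp3a members were read beside them. Some genes of these lists, and Cyp2b9 and Cyp2b13 in the list of PXR and CAR targets too, were already known to differ on these arrays when the lists were drawn up, so the counts support no direction. Of 16 female-biased genes with a ratio at 3 weeks, 8 were at least 2-fold lower and 0 higher in KO, with a median log2 of -1.01, beside 3.15% lower and 2.95% higher over all genes. At 6 weeks 3 of 17 were lower and 3 higher, with a median of 0.34, beside 4.55% and 6.51%. The 3 past 2-fold lower at both ages were A1bg, Hao2 and Prom1. Hao2, a peroxisomal hydroxy acid oxidase, read 4.0 and 1.46 at 3 weeks and 2.78 and 0.361 at 6 weeks, log2 ratios of -1.45 and -2.94. Prom1, a membrane glycoprotein of progenitor and duct cells, had -1.59 and -2.89. A1bg, a secreted glycoprotein, was 3.16-fold lower at 3 weeks. At 6 weeks it was not well above background in KO, so it was at least 21.5-fold lower there. Among those higher at 6 weeks were Atp6v0d2, a proton pump subunit, with -0.30 and 1.64, and Fmo2, with 0.16 and 1.08. Cyp3a41b and Cyp3a44 were past 2-fold lower at both ages like these 3 genes, but they were chosen by their ratios, so nothing is read from this likeness. The split also depends on the cutoff: Slc22a27, with -1.30 and -0.82, was lower at both ages and past 2-fold at 3 weeks alone.

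In KO at 3 weeks, 5 of the 13 male-biased genes measured lay at least 2-fold above WT and 0 below it, with a median log2 of 0.95. At 6 weeks 4 were higher and 2 lower, with a median of 0.18. Of all genes, 2.95% were higher and 3.15% lower at 3 weeks, and 6.51% and 4.55% at 6 weeks. Cyp4a12a and Cyp4a12b, fatty acid hydroxylases, were higher at both ages, with log2 ratios of 1.22 and 2.17 and of 2.07 and 2.59. These probes were dim, at signals from 0.0316 to 0.357 for Cyp4a12b. Cyp2d9, a steroid hydroxylase, had 0.95 and 1.81, and Susd4 0.99 and 2.07. The other genes past 2-fold higher at 3 weeks were not so at 6 weeks: Slco1a1 had 3.40 and 0.28, Mup20 2.13 and 0.06, and Hsd3b5 1.97 and -1.16. Besides Hsd3b5, Cspg5 was the gene past 2-fold lower at 6 weeks, with 0.20 and a bound of -1.42 on a dim probe. In the growth hormone list, 0 of 8 genes were past 2-fold at either age, beside the same shares of all genes, with medians of -0.08 and -0.16. Its widest at 6 weeks were the repressor Bcl6 (0.77 and 0.47), Stat5a (-0.10 and -0.31), the feedback gene Cish (-0.55 and -0.29) and the hormone gene Igf1 (-0.20 and -0.18).

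**Figure D5:**
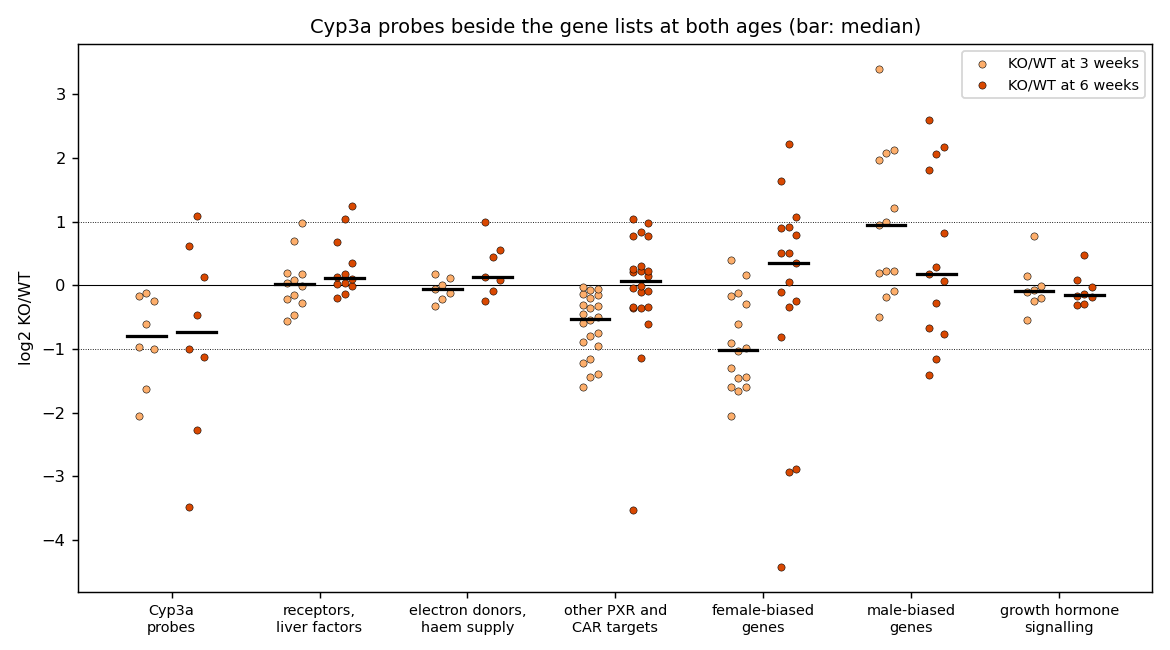
Log2 KO/WT of the 8 Cyp3a probes and of the genes of each list at 3 weeks (light) and 6 weeks (dark); each point is 1 probe or gene and each bar the median. Dotted lines mark 2-fold. The Cyp3a median stays near -0.79 and -0.74, and the female-biased median goes from -1.01 to 0.34. The medians of receptors, electron donors and growth hormone genes lie between -0.16 and 0.12. A1bg and Cspg5 at 6 weeks are plotted at their bounds.

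Over the 4 arrays, the genes most like a member were found by the root mean square difference of centred log2 signals among 14096 genes well above background on every array. For Cyp3a11, on the brighter probe, which is the one for it alone, they were Slc17a1 (0.0181), Igfals (0.0447), Arhgef16 (0.0497), Unkl (0.0498) and Acss2 (0.0591). Slc17a1, a phosphate and organic anion transporter, had log2 KO/WT ratios of -0.58 and -0.51. For Cyp3a44 the nearest were farther away: Hao2 (0.310), Cyp2c55 (0.408), Sult2a3 (0.465), Cenpe (0.655) and Fam25c (0.697). Sult2a3, a sulfotransferase of steroids and bile acids, had -0.98 and -2.89. With 4 values per gene near matches are found for a shallow pattern such as that of Cyp3a11, and the list is a description.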

How the data were processed

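Liver RNA of 4 pools was measured on 4 arrays. The deposited intensity is Agilent's processed signal, which the submitters' processing notes credit to Feature Extraction 11.5.1.1, with background subtracted and no scaling between arrays, per the file headers. The deposited files also hold mean and background intensities, used for the normexp alternative, and an error of the processed signal. Flags of 0 or 1 in them mark outliers, saturation and spots well above background. The authors' deposited value table holds the same signal as a ratio to each array's 75th percentile, which settles its scale, centring and direction: the quotient by the values computed here was 1.00 on each array, and its column medians were 0.0878, 0.0896, 0.0853 and 0.0864 (WT and KO at 3 weeks, then at 6 weeks). Positions are mm9, as the files give them. Of 43020 spots that are no controls per array, 28714 to 30697 were well above background. The number of arrays limits the precision.

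The log2 of each intensity was taken minus that of the array's 75th percentile, which ranged from 1124 to 1313. Outlier spots (189 to 252 per array) were left out, and spots of a probe were averaged. A ratio needed a probe well above background on 1 or both arrays compared, and on all 4 for the difference between ages. With 1 dim array, a bound was taken: the bright signal against the dim probe's own or, if higher, the dimmest signal that was well above background on that array. Where such a bound would turn the direction, no ratio was given. Genes of the lists were read on their brightest probe. Of 39429 probes, 27508 were named through an accession, 3544 through a symbol and 404 through a synonym in the RefSeq table (GRCm38.p6), and 7973 kept the file's name.

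Past 2-fold was the count used, and no test was run. The text names all Cyp3a probes, all receptors, the 5 genes most like Cyp3a11 and Cyp3a44, and of each list the members past 2-fold at both ages and up to 4 by the larger ratio at 6 weeks. Any other gene was picked with its values in view. A gene that the rule takes is not reported here. The members, lists and rules were chosen with earlier results of these data known. Alternatives were quantile normalization, normexp with offset 50, median scaling, a percentile over well-measured spots, outliers kept, the authors' table, other filters and other folds. Protein identity was planned and not run. The steps were tested on simulated data. Python 3.11.15, numpy 2.4.6, pandas 2.3.3, biopython 1.88, matplotlib 3.10.9, R 4.3.3 and limma 3.58.1 (alternatives only) were used, and 0 sample columns were left unmapped.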

Additional observations from a re-analysis of the deposited data

Results flagged for a closer look

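For 5 probes the KO array was under its WT array at 3 weeks and over it at 6 weeks, and each of these differences between ages rests on 1 array per group and was not tested. The log2 KO/WT at 6 weeks minus that at 3 weeks was 1.27 for Cyp3a13 at base 2791 and 0.38 for Cyp3a13 at base 1644. It was 0.75 for Cyp3a25, 0.81 for Cyp3a57 and 0.20 for Cyp3a59 at base 1622. The last is within 2 spot-to-spot SDs (0.263), and its ratio at 6 weeks was 0.01.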

How the results depend on the processing

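No paired analysis was possible because each group is 1 array. Over quantile normalization, normexp, median scaling, a percentile over well-measured spots, outliers kept and the authors' table, the 40 log2 ratios of the 8 probes kept their sign, except under quantile normalization for the Cyp3a11 probe at base 1939 (6 over 3 weeks in KO -0.0029, difference between ages -0.11). The largest shifts were 0.268 under quantile normalization and 0.150 under normexp. Quantile normalization shifted 12 of the 40 past the spot-to-spot spread. With it, the log2 KO/WT at 6 weeks was 0.41 in place of 0.62 for Cyp3a25. For Cyp3a11 at base 1939 it was -0.69 in place of -0.47. Of the probes past 2-fold, the 3 at 3 weeks became 5 at 1.5-fold, and 2 under quantile normalization and the other percentile, where Cyp3a16 fell short. The 5 at 6 weeks became 2 at 3-fold, and the 0 between ages in WT became 2 at 1.5-fold. The 2 between ages in KO became 1 under quantile normalization, under the other percentile and at 3-fold. The 2 in the difference between ages became 4 at 1.5-fold and 0 at 3-fold. Over all probes, the 826 lower and 805 higher in KO at 3 weeks became 276 and 352 under normexp, 238 and 305 with probes well above background on all arrays, and 1498 and 1668 with no filter. At 6 weeks 1217 and 1755 became 525 and 764, 716 and 867, and 2086 and 2773. All member probes stayed in under each filter. When a gene's probes were averaged, the female-biased median at 6 weeks was 0.47 in place of 0.34. A single spot per array and pools of unstated sex limit every ratio.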
